A study of Mus musculus with 2 samples.

Results

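The H2 complex, the mouse major histocompatibility complex (MHC), was examined in H3K27ac peak lists of mouse leukaemia cells. Its members were taken as the protein-coding genes on chromosome 17 of the mm10 gene table whose symbols start with H2-, which gave 38 of 21887 protein-coding genes. For 3 of them (H2-Q8, H2-Q9 and H2-T18) the table gives positions on another scaffold, and they were not analysed here. The other 35 comprised 25 class I genes, 9 class II genes and H2-Ke6, a steroid dehydrogenase gene that belongs to neither class. The cells were MA9 leukaemia cells (carrying the MLL-AF9 fusion, a model of acute myeloid leukaemia) taken from primary animals' bone marrow. One library was labelled Gata2 f/f, with floxed Gata2 alleles, and the other Gata2 -/- (Gata2 KO); Gata2 is a transcription factor of blood stem and progenitor cells. The protocol, shared by both, names transduction with Cre or, as control, MIT, a sort for GFP and tdTomato, and 7 to 9 days of culture with IL-3, IL-6 (10 ng/mL) and SCF (20 ng/mL). Which library received which vector, the strain, the age and the number of animals were not stated in the labels. With 1 library per genotype no difference has a replicate check, no test was made, and every comparison describes these 2 libraries.

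Class I molecules are heavy chains that pair with beta-2 microglobulin and show peptides from inside the cell to CD8 T cells. The classical class I genes H2-K1 and H2-D1 are expressed in most cells, whereas the class Ib genes of the Q, T and M families are mostly more restricted. Class II molecules are heterodimers of an alpha and a beta chain on antigen-presenting cells. The classical genes H2-Ab1, H2-Aa, H2-Eb1 and H2-Eb2 belong to the surface molecules, and the non-classical H2-DM and H2-O genes encode the endosomal proteins that load peptides and regulate loading. H3K27ac, acetylation of histone H3 at lysine 27, marks active promoters and enhancers, and a peak is a stretch of the genome where the authors' peak caller found the mark enriched.

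The 250 bases before the start of 4 class I genes are shown from RefSeq (GRCm38.p6, the assembly of mm10), 5′ to 3′ on the gene's strand. The starts of H2-K1, H2-D1 and H2-T23 lay under a peak in both libraries, and H2-Q7 lay in a stretch with none. Capitals mark matches on either strand to 4 motifs. These were a kappaB motif (GGGGA directly followed by TTCCC), an interferon-response motif (GAAA, any pair of bases, GAAA), TGACG (the core of a cAMP-response element) and ATTGG (the inverted CCAAT box, the Y box of MHC promoters). They lie at chr17:34000348-34000597 (H2-K1, minus strand), chr17:35262844-35263093 (H2-D1, plus), chr17:35438905-35439154 (H2-Q7, plus) and chr17:36032702-36032951 (H2-T23, minus).
H2-K1: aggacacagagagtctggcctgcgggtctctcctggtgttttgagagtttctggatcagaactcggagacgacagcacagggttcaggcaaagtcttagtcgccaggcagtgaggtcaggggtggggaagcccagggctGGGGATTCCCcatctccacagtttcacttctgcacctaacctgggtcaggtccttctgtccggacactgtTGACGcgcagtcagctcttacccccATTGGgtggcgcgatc
H2-D1: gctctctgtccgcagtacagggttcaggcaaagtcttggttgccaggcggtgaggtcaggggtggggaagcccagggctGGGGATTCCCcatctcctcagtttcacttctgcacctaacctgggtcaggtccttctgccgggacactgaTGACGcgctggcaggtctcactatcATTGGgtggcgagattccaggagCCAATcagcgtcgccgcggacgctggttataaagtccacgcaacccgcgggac
H2-Q7: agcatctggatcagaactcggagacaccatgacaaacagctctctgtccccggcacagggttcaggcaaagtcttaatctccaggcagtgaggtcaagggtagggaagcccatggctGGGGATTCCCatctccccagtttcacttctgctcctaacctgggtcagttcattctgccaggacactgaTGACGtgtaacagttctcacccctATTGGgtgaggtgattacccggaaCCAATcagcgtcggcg
H2-T23: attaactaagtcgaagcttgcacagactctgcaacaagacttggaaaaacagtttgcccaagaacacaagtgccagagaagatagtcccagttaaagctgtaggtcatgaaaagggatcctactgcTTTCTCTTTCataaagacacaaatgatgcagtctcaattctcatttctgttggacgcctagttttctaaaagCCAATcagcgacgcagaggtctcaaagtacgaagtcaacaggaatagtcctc
The kappaB motif was found in H2-K1, H2-D1, H2-Q6 and H2-Q7 among the 32 H2 genes with a promoter entry, and in 0.109% of all 17492 promoters of this length. Of these 4 genes, H2-K1 and H2-D1 had a peak over the start in both libraries. The nearest peak to the start of H2-Q7 was 43.9 kb away in f/f and 43.2 kb in KO, and to that of H2-Q6 58.2 and 57.5 kb. The interferon-response motif was found in H2-T23 and H2-T22 and in 3.02% of all promoters, and TGACG in 12 of 32 H2 promoters (11 of class I, 1 of class II) and in 20.3% of all. The sequence known to be bound by Gata2 and its relatives, searched as AGATAA and not capitalised, was found in H2-Oa, H2-Q2 and H2-M11 and in 9.12% of all. These matches describe letters and not bound factors. Other forms of these motifs, among them the interferon-response motif and the Gata2 sequence, were not searched. A promoter without a match may hold such a form.

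The promoters of 3 class II genes are shown in the same way, H2-DMb1 with a peak over its start in both libraries and H2-Eb1 and H2-Aa with none. They lie at chr17:34152941-34153190 (H2-DMb1, plus strand), chr17:34305617-34305866 (H2-Eb1, plus) and chr17:34287824-34288073 (H2-Aa, minus).
H2-DMb1: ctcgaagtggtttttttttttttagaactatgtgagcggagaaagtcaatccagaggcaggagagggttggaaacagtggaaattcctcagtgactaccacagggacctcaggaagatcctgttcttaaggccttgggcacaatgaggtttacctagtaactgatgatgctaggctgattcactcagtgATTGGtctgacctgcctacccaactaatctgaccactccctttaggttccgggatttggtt
H2-Eb1: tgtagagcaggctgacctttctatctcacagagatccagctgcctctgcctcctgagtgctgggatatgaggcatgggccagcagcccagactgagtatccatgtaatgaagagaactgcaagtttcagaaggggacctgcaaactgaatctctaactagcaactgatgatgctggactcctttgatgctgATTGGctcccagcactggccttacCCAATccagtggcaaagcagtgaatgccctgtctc
H2-Aa: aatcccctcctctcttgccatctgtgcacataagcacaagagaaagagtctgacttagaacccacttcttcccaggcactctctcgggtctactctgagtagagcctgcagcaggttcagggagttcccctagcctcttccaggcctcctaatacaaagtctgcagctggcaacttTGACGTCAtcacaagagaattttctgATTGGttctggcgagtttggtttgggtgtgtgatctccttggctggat
Each has ATTGG on the gene's strand, beginning 61 bases before the start in H2-DMb1, 59 in H2-Eb1 and 48 in H2-Aa. ATTGG was found in 7 of 8 class II promoters and 28 of 32 H2 promoters, against 36.3% of all. H2-Aa also has TGACG on both strands, the matches overlapping, and was the single class II promoter with it. ATTGG was thus present in the promoter with a peak and in both without one.

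The lists held 34272 (f/f) and 37234 (KO) peaks on the main chromosomes, of which 1586 and 1730 lay on chromosome 17. The median -log10 p of a peak, the authors' own value, was 12.2 and 9.41, and the read depth is unknown. In all, KO peaks covered 1.05 times as many bases as f/f peaks. Sex-linked marks set the libraries apart: chromosome Y held 4 peaks in KO and 0 in f/f, and Xist had a peak in f/f alone. The part of depth, of peak strength and of the animals' sex in the differences given here was not tested.

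Of the 35 placed H2 genes, 14 had a peak within 1 kb of a gene end in f/f (50.6% of all 21774 placed protein-coding genes did) and 13 in KO (50.5%). The 13 were marked in both libraries (47.9% of all genes). No H2 gene was marked in 1 library with no peak of the other within 5 kb, a state found for 1.84% of all genes in f/f and 1.61% in KO. H2-Eb2 had an f/f gene-end peak and a KO peak within 5 kb, but not 1 kb, of either gene end (0.905% of all genes), no member had the converse (1.05%), and 21 were marked in neither library (46.7%). By class, 7 of 25 class I and 5 of 9 class II genes were marked in both, as was H2-Ke6. Of the other 134 protein-coding genes between H2-K1 and H2-M2, 74 were marked in both, and these were 74 of the 118 that are not olfactory receptor genes. Over the 32 members with a listed transcription start, 11 had a peak within 1 kb of it in both libraries (49.2% of all 17492 genes with an entry) and 21 in neither.

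Both classical class I genes were marked over their start in both libraries. H2-K1 (chromosome 17, 33996012 to 34000619) had a single peak, 1649 bp wide in f/f and 1751 bp in KO. Its fold enrichment was 5.06 and 4.52 and its -log10 p 59.5 and 44.1, at percentiles 83.8 and 87.4 of their own lists. Fold and -log10 p serve here only to place a peak within its list. H2-D1 (35263094 to 35267497) had a start peak of 1676 bp (f/f) and 1927 bp (KO), at percentiles 82.7 and 85.9. A weaker peak below the gene, 1723 and 1954 bp wide, was shared, and a 394 bp peak 6.99 kb above it was found in KO alone (-log10 p 5.65). Over each gene and 10 kb on both sides, its window, peaks covered 1649 bases (f/f) and 1751 (KO) at H2-K1 and 3399 and 4275 at H2-D1. That was 6.70% and 7.12% of the H2-K1 window and 13.9% and 17.5% of the H2-D1 window.

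In the T family, 4 of 5 genes were marked at an end in both libraries. H2-T23, which encodes Qa-1, the ligand of the NKG2A receptor of natural killer cells, had a start peak of 1085 bp (f/f) and 954 bp (KO). By -log10 p (48.4 and 50.2, percentiles 80.1 and 89.9) it was the strongest peak among the T genes in each list. H2-T22, which encodes a ligand of gamma-delta T cells, had a peak of 1506 and 1494 bp over its start. That peak also holds the start of the predicted gene Gm6034. H2-T-ps, listed as protein-coding despite its name, had a start peak of 1036 and 985 bp. At H2-T24 the widest gene-end peak, 3666 and 4456 bp, lay 0.147 kb above the gene in f/f and overlapped it in KO. That peak also overlapped A930015D03Rik, a gene outside the H2 family, as did the start peak of H2-T23. H2-T3, the thymus leukaemia antigen gene, had no gene-end peak, and its window held 478 bases in f/f (-log10 p 6.63) and 0 in KO. Covered bases went from 5200 (f/f) to 6019 (KO) at H2-T23 and from 7108 to 7910 at H2-T24, and from 2591 to 2448 at H2-T22 and 1869 to 1669 at H2-T-ps. The windows of H2-T24, H2-T23 and H2-T22 overlap, and merged they held 9699 and 10358 bases, a ratio of KO to f/f of 1.07.

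The Q family was without a gene-end peak in either library. H2-Q1, H2-Q2, H2-Q4, H2-Q6 and H2-Q7 had 0 covered bases in both. All 6 Q genes, and no other protein-coding gene, lay in 179.9 kb (35302398 to 35482332) that no peak of either list touched. The window of H2-Q10, which encodes a secreted class I molecule of the liver, held 1124 bases (f/f) and 1619 (KO). These came from a weak peak 8.51 and 7.77 kb from the gene, with a -log10 p of 3.87 and 4.82.

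Of the 12 M genes, whose M10 members are known from the vomeronasal organ, 9 had 0 covered bases in both libraries. Stretches of 194.5 kb with H2-M11, H2-M9 and H2-M1, and of 137.7 kb with H2-M10.5 and H2-M10.6, held no peak. H2-M3, which presents formylated bacterial peptides, was the single M gene marked at an end. Its start lay under a peak of 1249 bp (f/f) and 1155 bp (KO), with a fold of 6.26 and 6.25. H2-M5 had an internal peak of 972 and 1755 bp and, in KO alone, a further one of 444 bp over the start of Zfp57. Its window held 972 bases in f/f and 2199 in KO, all from peaks below their list's median -log10 p. H2-M10.1 had 1020 and 800 bases, from a peak more than 7 kb from the gene.

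Several of these genes are close copies of each other. The highest identity between H2 promoters of 250 bases was 88.8% (H2-M10.3 and H2-M10.5), and H2-D1 and H2-Q6 were 82.0% identical. Of the 201 stretches of 50 bases in a promoter, the number also found in another gene's promoter was 169 in H2-T22, 37 in H2-T23 and in H2-T-ps, and 17 in H2-Q6 and in H2-Q7. It was 21 in H2-M9 and in H2-M1 and 17 in H2-M10.3 and in H2-M10.5, which all had 0 covered bases. It was 0 in H2-K1, H2-D1, H2-Q2, H2-Q4 and H2-Q10. Among the M genes it was also 0 in H2-M10.2, H2-M10.4, H2-M10.6, H2-M11 and H2-M2, which had 0 covered bases as well. In H2-M10.1, H2-M5 and H2-M3, which had covered bases, it was 0 too. How reads that fit several copies were treated was not stated, and its part in the zeros was not tested.

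**Figure D1:**
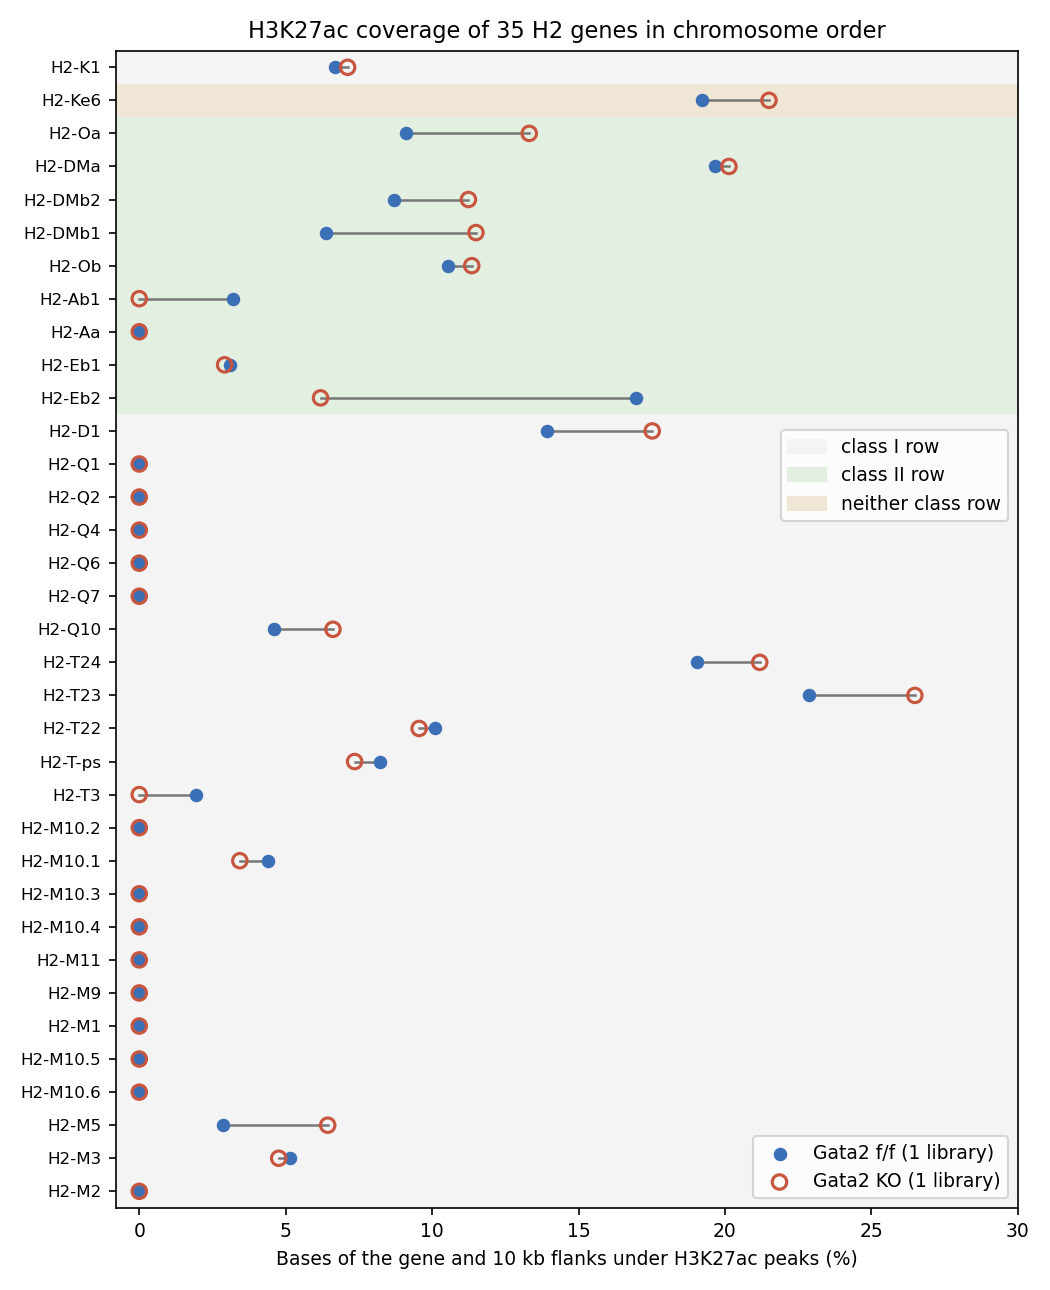
Percent of bases of each of 35 H2 genes and 10 kb on both sides under H3K27ac peaks (horizontal axis), with genes in chromosome order and rows shaded by class; filled points are the f/f library and open points the KO library. Most Q and M genes lie at 0 in both, the non-classical class II genes lie further right in KO, and H2-Eb2 goes from 16.9% in f/f to 6.19% in KO.

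Class II genes divided by kind. All 5 non-classical genes were marked at an end in both libraries and none of the 4 classical genes was. All 5 non-classical genes had more covered bases in KO, while the classical H2-Ab1, H2-Eb1 and H2-Eb2 had fewer and H2-Aa had 0 in both. Over all protein-coding genes 36.7% had more bases in KO, 32.9% fewer and 30.3% none in either list. Neighbouring windows share bases, and the direction of the non-classical genes depended on which peaks were counted. Among peaks of at least 3-fold enrichment 2 of the 5 had more bases in KO and 3 fewer (25.2% and 39.6% of all genes). The classical genes again had 3 with fewer and 0 with more.

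H2-Oa, the alpha chain of H2-O, which restrains H2-DM, had a start peak of 1202 bp (f/f) and 1184 bp (KO). A second peak 6.20 kb above the gene was 877 and 1860 bp wide, and the window held 2079 and 3044 bases (9.10% and 13.3%). H2-Ob, the beta chain, had 2850 and 3066 bases in 3 peaks per library. Its gene-end peak, 1161 and 968 bp wide, began 0.435 kb (f/f) and 0.577 kb (KO) inside the gene.

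H2-DM exchanges the invariant chain peptide for antigen, and its genes are neighbours. H2-DMb1 had a start peak of 909 bp (f/f) and 1163 bp (KO). A 1327 bp peak 4.12 kb above it was found in KO alone, with a -log10 p of 8.17, below that list's median of 9.41. The H2-DMb1 window held 1728 bases (f/f) and 3109 (KO), which is 1381 more. The difference was 147 bases without flanks and turned to -284 when peaks under 3-fold enrichment were left out. H2-DMb2 had a gene-end peak of 938 and 913 bp, 1.74 and 1.78 kb from its listed start, and 2461 and 3184 covered bases. H2-DMa had 7747 and 7936 bases. Its gene-end peak, 4402 and 4453 bp wide, holds the start of Brd2, a bromodomain gene, and ends 9 bp (f/f) and 101 bp (KO) short of the first listed start of H2-DMa.

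Of the classical genes H2-Eb2 (34325503 to 34341410), an E beta gene, had the largest difference in covered bases of the 35 members, 6086 in f/f and 2223 in KO, or -3863. The difference was -1613 bases without flanks and -1987 with peaks under 3-fold enrichment left out. An internal peak was 1358 bp wide in f/f (-log10 p 20.2) and 669 bp in KO (6.21). A 1298 bp peak at the upper end, away from the listed start, was found in f/f alone (-log10 p 11.9, just below that list's median of 12.2). It was also a gene-end peak of the transcribed pseudogene H2-Ea, which lies above H2-Eb2. The nearest KO peak to the upper end of H2-Eb2 was 6.54 kb away, and the KO peak within 5 kb lay 4.09 kb from the opposite end. Above H2-Eb2 and H2-Ea, towards Btnl2, a weak peak was 3430 bp wide in f/f and 1554 bp in KO. H2-Ab1 (34263227 to 34269418), the A beta chain, had a single f/f peak of 838 bp beginning 1.19 kb inside the gene (-log10 p 13.7) and none in KO. That peak lay just outside the 1 kb limit for a gene end, while an H2-T24 peak at 0.772 kb (f/f) and 0.653 kb (KO) lay just inside.

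H2-Eb1, the E beta chain, had an internal peak of 958 bp in f/f (-log10 p 17.1) and 898 bp in KO (8.83). H2-Aa, the A alpha chain, had no peak in its window, the nearest lying 21.5 kb (f/f) and 21.7 kb (KO) from its start. At H2-Eb1 the nearest peak to the start was 3.50 and 3.63 kb away, and at H2-Eb2 3.51 and 3.92 kb. No classical class II gene with a listed start therefore had a peak near it in either library. The merged locus from H2-Ob to H2-Eb2, 122.5 kb long, held 10732 bases in 8 peaks in f/f and 6187 in 6 peaks in KO, a ratio of 0.577.

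**Figure D2:**
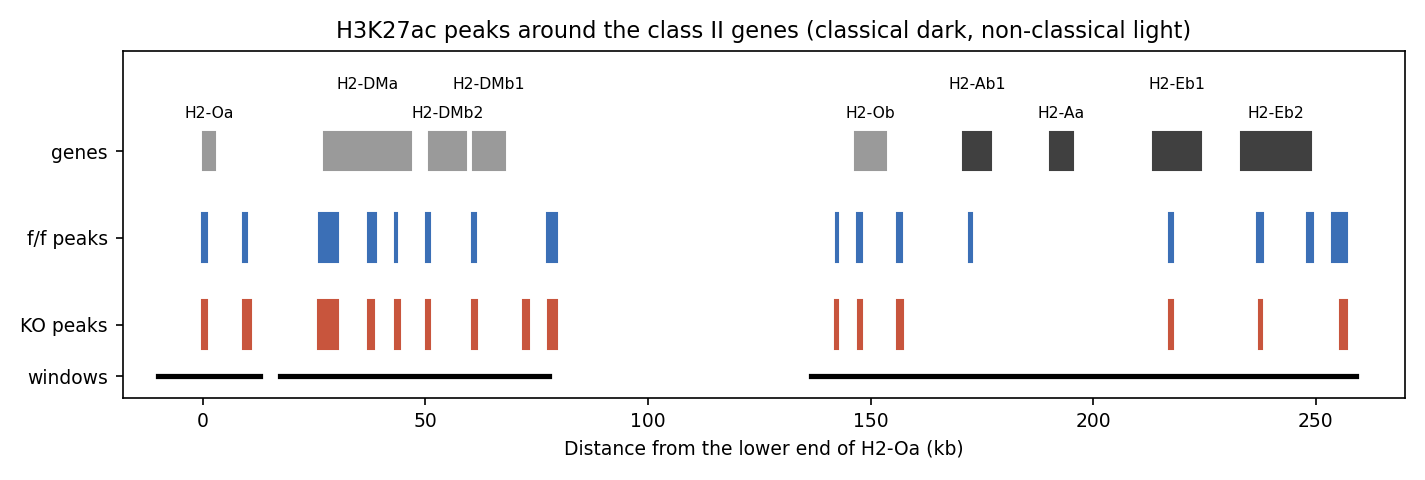
Map of the class II genes by distance from the lower end of H2-Oa (kb), with classical genes dark and non-classical genes light, and the H3K27ac peaks of each library that touch a gene's 10 kb window drawn to scale; black bars are the merged windows, and peaks between the bars are not drawn. From H2-Ab1 onward f/f has 5 peaks and KO 3.

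A window was then called different where 1 library had at least 1.5 times the covered bases of the other and at least 500 bp more. H2-DMb1 and H2-M5 were higher in KO (2 of 35, against 9.91% of all genes) and H2-Ab1 and H2-Eb2 lower (2 of 35, against 7.81%), which is no more than the share of all genes. At H2-M5 the difference of 1227 bases turned to -972 with peaks of -log10 q of at least 5. Over the 35 members 12 had more bases in KO, 8 fewer and 15 none in either library. That balance turned to 7 more and 11 fewer with peaks of -log10 q of at least 5 (29.3% and 35.3% of all genes). It was 7 and 12 with 3-fold enrichment (25.2% and 39.6%), 7 and 10 without flanks and 8 and 10 with 5 kb flanks. In class I these counts were 6, 5 and 14, with a median difference of 0 points, and in class II 5, 3 and 1, with a median of 0.480 points (0 over all genes). The class II counts turned to 2 more and 6 fewer with 3-fold enrichment (25.2% and 39.6% of all genes). With overlapping windows merged, the genes formed 25 loci with 47657 covered bases (f/f) and 48557 (KO), a ratio of 1.02 beside 1.05 for all peaks. The ratio was 1.11 over the 21 class I loci and 0.910 over the 3 class II loci. The ratio over all loci fell below 1 with stricter peaks, at 0.857 among peaks of at least 3-fold enrichment, where that of all peaks was 0.833.

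Gene-end peaks were of similar width in the libraries. Of the 13 genes marked in both, 6 had a wider widest peak in KO and 7 a narrower one, against 47.1% and 52.6% of all genes marked in both. The median ratio of KO to f/f was 0.992, and 0.994 over all such genes. In 8 genes (H2-K1, H2-Oa, H2-DMb1, H2-D1, H2-T23, H2-T22, H2-T-ps and H2-M3) the gene's own start lay inside the peak in both libraries. For H2-Ke6 the widest gene-end peak, 1244 and 1284 bp, lay over the start of Ring1, and one of 529 and 492 bp lay within H2-Ke6.

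**Figure D3:**
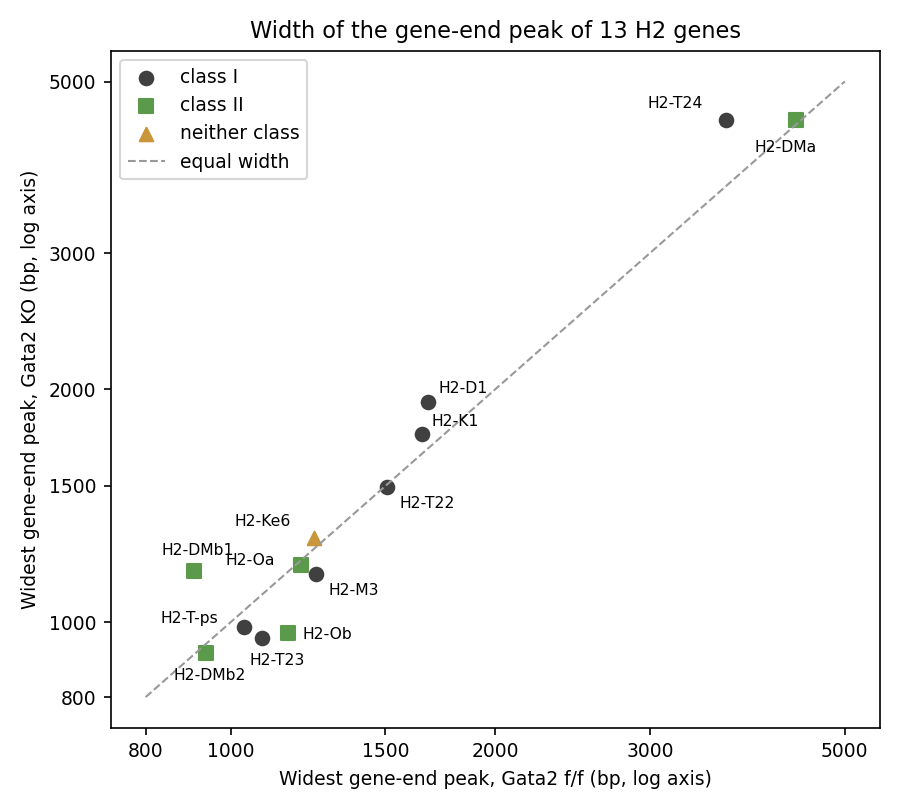
Width of the widest H3K27ac peak within 1 kb of a gene end in f/f (horizontal) and KO (vertical), in bp on log axes, for the 13 H2 genes marked in both libraries, with a line of equal width. H2-DMb1 (909 and 1163 bp) and H2-T24 (3666 and 4456 bp) lie above the line and H2-Ob (1161 and 968 bp) below it.

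The genes that serve class I and class II molecules were read from a list of 43 antigen presentation genes, 42 of them found in the table. Of these 32 were marked at a gene end in both libraries (47.9% of all genes) and Fcgrt in KO alone (1.61%). More covered bases in KO were found for 21 of them (36.7% of all genes) and fewer for 21 (32.9%). With all peaks counted each of the 42 had covered bases, whereas 30.3% of all genes had none in either list. The even split depended on which peaks were counted. It was 18 more and 24 fewer with -log10 q of at least 5 (29.3% and 35.3% of all genes). It was 14 and 25 with at least 3-fold enrichment (25.2% and 39.6%). The KO list cut to 34272 peaks, as many as f/f held, gave 18 and 24 (33.3% and 35.6%). Without flanks or with 5 kb flanks it was 21 and 20, and 22 and 20 with 25 kb. All 14 genes of the class I pathway (peptide generation, transport and loading) were marked in both, with 7 higher and 7 lower in KO. Some of the 14, Tap1 among them, are neighbours whose windows overlap and share peaks. They were not merged, so these counts are not of separate loci. Tap1, a peptide transporter subunit, had 4941 bases (f/f) and 5137 (KO). B2m, the light chain of class I, had 6136 and 5260, KO lacking a 2544 bp peak 9.01 kb from the gene. That f/f peak runs past the edge of the window, so only part of it was counted. The gene-end peaks of B2m were 2208 and 2941 bp wide in f/f and 1943 and 3317 bp in KO.

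Of the 5 class II pathway genes 2 were marked in both libraries. Cd74, the invariant chain of class II, had no gene-end peak but an internal one of 2653 bp (f/f) and 2777 bp (KO). Ciita, the transactivator of class II genes, had no gene-end peak in either library, with 881 and 1553 covered bases (1.24% and 2.19% of its window). A KO peak of 651 bp lay 1.006 kb from it, just outside the 1 kb limit for a gene end, and f/f had none there. Nlrc5, the transactivator of class I genes, had a gene-end peak of 1146 and 913 bp and 6.14% and 6.43% of its window covered. The difference at Ciita, from weak peaks, was past 1.5 times and 500 bp, and that at Nlrc5 was not.

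The largest differences downward in KO were those of Irf8, a transcription factor of monocytes and dendritic cells (12.5% in f/f, 4.68% in KO), the interferon-induced Irf1 (23.8% and 19.4%), the lipid-presenting Cd1d1 (13.5% and 9.25%) and B2m (24.2% and 20.7%). Irf8 had a gene-end peak of 921 bp in f/f, with a -log10 p of 7.55, and none in KO. Upward they were those of the IgG receptor Fcgrt (2.92% and 7.03%), the iron regulator Hfe (25.3% and 28.5%), Irf2 (12884 and 15957 bases) and the NKG2D ligand gene Ulbp1 (6.41% and 8.78%). The KO gene-end peak of Fcgrt was weak, with a -log10 p of 4.63.

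**Figure D4:**
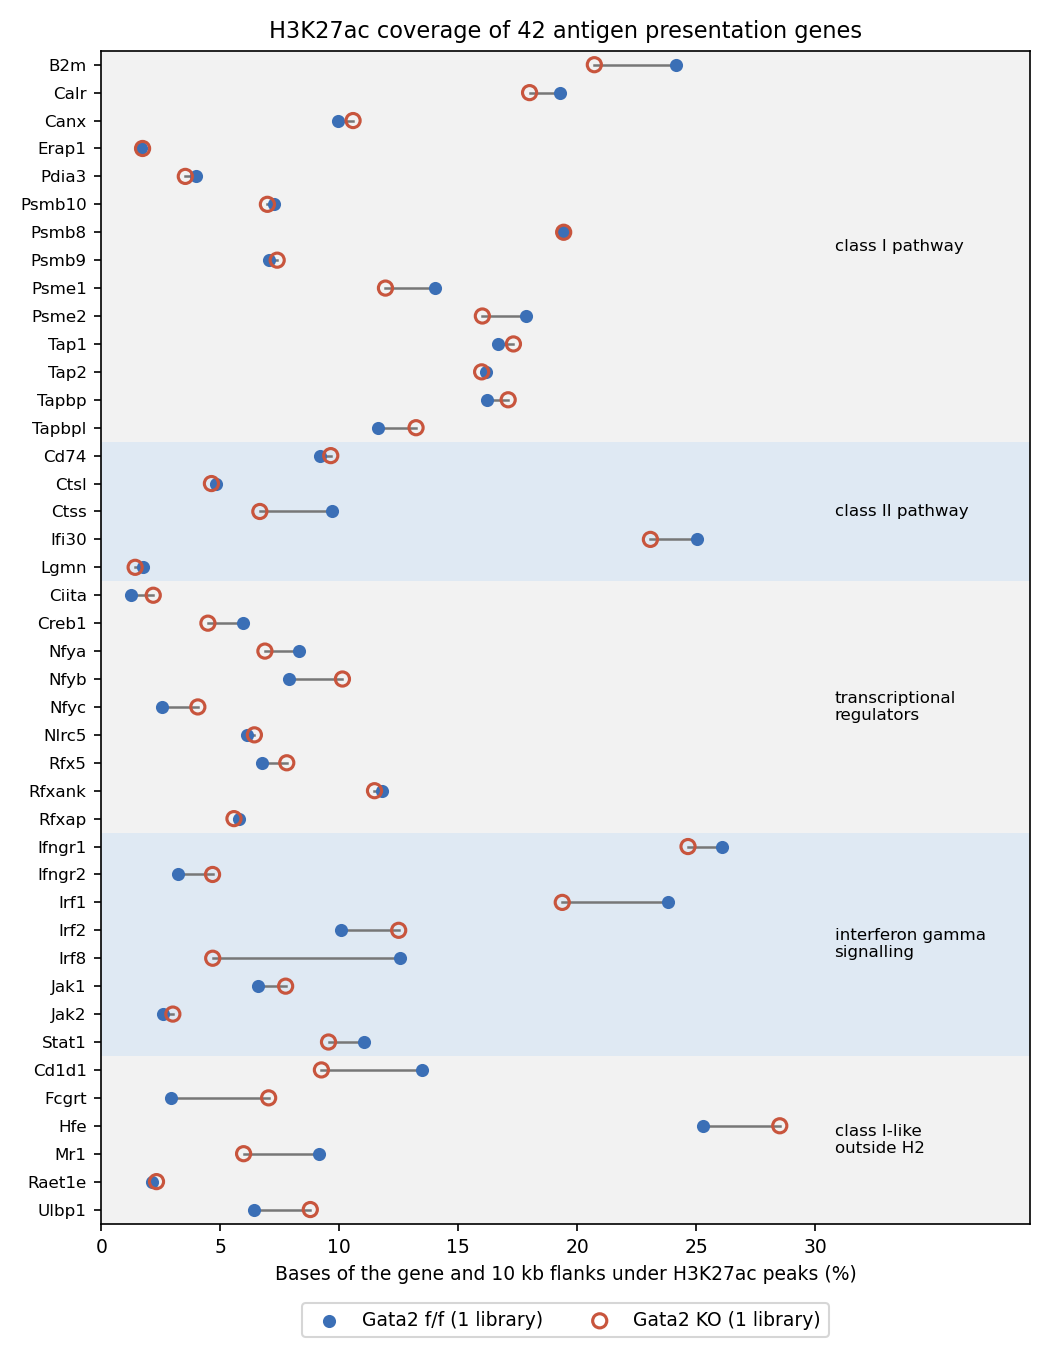
Percent of bases of 42 antigen presentation genes and 10 kb on both sides under H3K27ac peaks, grouped by role; filled points are the f/f library and open points the KO library. Among class I pathway genes B2m differs most (24.2% and 20.7%), and Irf8 has the widest difference on the list (12.5% and 4.68%).

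Class II genes are expressed in B cells, dendritic cells and macrophages, so markers of these and of T cells were read in the same way. Of 29 markers 10 had a gene-end peak in both libraries (47.9% of all genes) and 7 had no covered base in either (30.3%). The 10 were 1 of 7 B cell, 3 of 8 dendritic cell, 4 of 8 macrophage and 2 of 6 T cell markers. The 7 were, in the same order, 2, 1, 2 and 2. The dendritic cell gene Clec9a was marked at its ends by f/f peaks alone (1.84% of all genes), with 1703 and 235 covered bases. Conversely, 1 macrophage marker was marked in KO alone (1.61% of all genes). Of the 8 dendritic cell markers 4 had more covered bases in KO (36.7% of all genes) and 3 fewer (32.9%). The 7 B cell markers summed to 9860 bases (f/f) and 5626 (KO), with 0 to 11.9% of a window covered in f/f and 0 to 9.80% in KO. Among them Ms4a1 was at 0 in both libraries, Ebf1 had 2786 and 0 bases, Cd79b 2763 and 1355 and Cr2 1255 and 1331, so that the lower sum in KO rested mainly on Ebf1 and Cd79b. The 8 dendritic cell markers summed to 19634 and 20179, with Cd209a at 0 in both, and the 8 macrophage markers to 14405 and 16863, with C1qa and C1qb at 0 in both. The 6 T cell markers summed to 10152 and 9284, with Cd3e and Cd8a at 0 in both. Windows of neighbouring T cell markers overlap, and that sum counts bases they share more than once. The B cell sum was lower in KO, as were the classical class II genes, in cells that had been sorted for GFP and tdTomato, and its part in that difference was not tested. Fewer cells with the mark and less of the mark per cell cannot be told apart in bulk chromatin.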

How the data were processed

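H3K27ac ChIP-seq of mouse MA9 cells gave 1 peak list per genotype, grouped by the genotype label. The submitters' processing notes name BWA, MACS2, SAMtools and mm10 without their roles, and the lists have the MACS2 broad-peak format. Tool versions, options, any control library and depth were not given in the sources used here. Each peak has a score (not used), a fold enrichment (a ratio), a -log10 p and a -log10 q, all as deposited by the authors. A list from more reads can hold more and wider peaks.

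Only chromosomes 1 to 19, X and Y entered. Genes came from RefSeq GRCm38.p6, the assembly of mm10, and 113 protein-coding genes with coordinates of other scaffolds were left out, H2-Q8, H2-Q9 and H2-T18 among them. Gene-end peaks lie within 1000 bp of either end; a gene is called in 1 library alone if the other has no peak within 5000 bp. Listed starts came from RefSeq promoter entries, which H2-Ab1, H2-Q1 and H2-T24 lack. Coverage is the number of bases under peaks in a gene and its 10 kb flanks. Python 3.11.15 and Biopython 1.88 were used, and the code was tested on 200 simulated windows, in part against bedtools 2.31.1. Other peak sets, windows and flanks were tried.

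Members and lists were chosen with earlier results of these data known. All H2 genes could be named. Of the antigen presentation list B2m, Ciita, Nlrc5, Cd74, Tap1, genes marked in 1 library alone and the 4 with the largest coverage difference each way were named, and of the markers those marked in 1 library alone. Some marker genes are not reported here by name. Other markers, and the rule of 1.5 times and 500 bp, were chosen after values were seen.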

Additional observations from a re-analysis of the deposited data

How the results depend on the processing

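Read depth is unknown and each genotype has 1 library, so neither counting error nor replicate error can be given, and no library could be left out. No paired analysis was possible because each genotype has 1 library and no test was made. The split of class II genes by kind was examined after seeing the data. The ratio of covered bases in merged H2 loci, 1.02, turned to 0.925 with peaks of -log10 q of at least 5, 0.857 with at least 3-fold enrichment, 0.974 without flanks and 0.997 with 5 kb flanks. The ratio of all peaks was 1.05, and 0.951 and 0.833 under those peak sets. Of all genes, 29.3% had more bases in KO and 35.3% fewer with -log10 q of at least 5. With at least 3-fold enrichment these shares were 25.2% and 39.6%. With -log10 q of at least 5, 7 H2 genes had more bases in KO (3 of class I, 3 of class II) and 11 fewer, 5 class II genes fewer, the non-classical genes split 3 more and 2 fewer, and f/f alone held marks at 1 H2 gene and 2 antigen presentation genes, KO alone at 0 of the latter. H2-M5 turned to -972 bases. With at least 3-fold enrichment, 7 H2 genes had more bases in KO and 12 fewer, class II split 2 more and 6 fewer, the non-classical genes 2 and 3, H2-DMb1 turned to -284 bases, and for antigen presentation genes the count was 1 for f/f alone and 0 for KO alone. Without flanks 7 H2 genes had more bases in KO and 10 fewer, H2-DMb1 fell from 1381 to 147 bases, H2-Eb2 went from -3863 to -1613 (-1987 with 3-fold enrichment), class II split 3 and 5 and the non-classical genes 3 and 2. With 5 kb flanks 8 H2 genes had more bases and 10 fewer, 1 of these non-classical, and H2-Eb2 had -2378. With 25 kb flanks 13 H2 genes had fewer (8 of class I, 5 of class II, 1 of these non-classical). Gene-end windows of 2000 bp gave 1 H2 gene in f/f alone and 2 antigen presentation genes in KO alone. A limit of 1000 bp in place of 5000 bp for the other list gave 1 H2 gene in f/f alone, and among antigen presentation genes 2 for f/f alone and 2 for KO alone. The cause was not tested. At 25 kb H2-DMb1 (1560 bases) and H2-Ab1 (-666) no longer passed the rule of 1.5 times and 500 bp, and H2-M5 had 2190. H2-M5 had 783 with 3-fold enrichment and without flanks. Of the other counts and ratios, 103 stayed within 1.5 times the reported value, among them every count of H2 genes marked in both libraries.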

Other observations

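The complex also holds 11 genes with an H2- symbol that the table lists as pseudogenes or transcribed pseudogenes. H2-Ea, next to H2-Eb2, had 4924 covered bases in its window in f/f and 1554 in KO, mostly from peaks that it shares with the H2-Eb2 window. H2-T10, next to H2-T-ps, had a gene-end peak of 2764 bp (f/f) and 1573 bp (KO). H2-K2, next to H2-K1, had one of 3579 and 3040 bp, and H2-Bl one of 1148 and 847 bp. H2-M6-ps had one of 696 and 1465 bp, the widest relative difference upward in KO among the 5 pseudogenes marked in both. H2-Q3, H2-Q5 and H2-M10.5-ps1 had 0 covered bases in both libraries.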
